A study of Mus musculus with 12 samples.

Results

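The interferon-stimulated genes described here are 43 genes that cells switch on after an interferon has bound its receptor, chosen as the rows of the count table whose gene name was 1 of 43 listed symbols. All 43 were found among the 35275 genes of the table, and all 43 had enough reads to be tested. They were grouped by role into 3 signal factors, 5 sensors of foreign nucleic acid, 15 antiviral effectors, 8 ubiquitin-like and ADP-ribose modifiers, 6 GTPases and 6 other induced genes.

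RNA was sequenced from the ileum, the last stretch of the small intestine, of C57BL/6 mouse pups on postnatal day 14. The stressed groups were 3 male and 3 female pups of 3 dams that had been restrained in a ventilated tube from gestational day 7 until gestational day 19, each day for 2 h. The control groups were 3 male and 3 female pups of 3 dams left undisturbed. Each dam gave 1 male and 1 female pup, so littermates carry the same dam number, and stressed refers to the dam and not to the pup. All dams were bought pregnant and ate a standard diet, and after the stress dams and litters were caged separately until harvest. The design asks whether stress of the pregnant dam goes with a change of gene expression in the ileum of male and of female offspring.

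Interferons are secreted proteins, and cells release those of type I and type III when their sensors detect foreign nucleic acid. Type I and type III interferons bind different receptors but signal through the same complex, which holds STAT2 and IRF9, enters the nucleus and binds a short DNA element, the interferon-stimulated response element. In the adult intestine the epithelium responds mainly to type III interferon and the cells of the underlying tissue mainly to type I. Whether this division holds in suckling pups was not tested here. A basal level of the interferon response is known in healthy intestine. Type II interferon acts mainly at another element, the gamma-activated site.

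The DNA around the start of these genes was searched for both elements. RefSeq start windows (build GRCm38.p6, 250 bases before to 50 after a start) were at hand for 32 of the 43 genes. The core of the interferon-stimulated response element, GAAA followed by any 2 bases and again GAAA, stood on either strand in a window of 18 of these 32 genes (56.3%), against 1079 of 27025 genes with a window (3.99%). Of the GTPases 5 of 5 held it, of the sensors 3 of 3, of the antiviral effectors 7 of 12, of the modifiers 2 of 5, of the signal factors 1 of 3 and of the other induced genes 0 of 4. The core of the gamma-activated site, TTCNNNGAA, which reads the same on both strands, stood in a window of 7 of the 32 genes (21.9%), against 9.55% of all genes. A match describes the letters and is not evidence of binding. For 6 of these 18 genes, 5 of which have their levels described below, the 100 bases around the matches are printed from the gene's own strand, with the matches to the first core or its reverse complement in capitals. The stretches lie at chr4:156200830-156200929 (minus strand) for Isg15, chr19:34640759-34640858 (plus) for Ifit1, chr19:34583362-34583461 (plus) for Ifit3, chr5:120907526-120907625 (minus) for Oas1a, chr8:71537542-71537641 (minus) for Bst2 and chr3:142559944-142560043 (plus) for Gbp3. All of them end before the RefSeq start of the gene.
Isg15: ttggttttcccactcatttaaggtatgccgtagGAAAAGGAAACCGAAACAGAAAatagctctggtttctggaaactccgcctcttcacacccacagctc
Ifit1: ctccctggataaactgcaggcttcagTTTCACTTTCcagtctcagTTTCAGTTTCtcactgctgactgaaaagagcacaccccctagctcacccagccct
Ifit3: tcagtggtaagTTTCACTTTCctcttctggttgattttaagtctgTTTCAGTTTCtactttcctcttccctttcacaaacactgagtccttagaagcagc
Oas1a: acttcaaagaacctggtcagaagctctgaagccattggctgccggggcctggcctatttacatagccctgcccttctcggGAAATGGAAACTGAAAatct
Bst2: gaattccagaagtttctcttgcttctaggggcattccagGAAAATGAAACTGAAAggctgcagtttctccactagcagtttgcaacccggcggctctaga
Gbp3: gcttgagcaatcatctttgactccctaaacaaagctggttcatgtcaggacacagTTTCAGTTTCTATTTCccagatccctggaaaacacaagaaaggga
In the Isg15, Oas1a, Bst2 and Gbp3 stretches the matches overlap and form 1 run. In Ifit1 and Ifit3 there are 2 separate matches. The printed genes all hold more than 1 match. Of the genes not printed, Ddx60 and Irgm1 hold 2 matches each. Ddx58, Eif2ak2, Gbp2, Gbp7, Ifih1, Igtp, Oas3, Rsad2, Stat2 and Trim30a, also not printed, hold 1 each.

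The libraries held 16423523 to 22975526 counted reads, with all male libraries below all female ones in size. The 43 genes together took 0.214% to 0.341% of the counted reads of a library. Epithelial markers (7 genes, summed 4577 to 7496 CPM, counts scaled to 1 common library total) and markers of the suckling ileal enterocyte (7 genes, 1636 to 2324 CPM) were present in all 12 libraries. Both pups of control dam 3 went partly against the label of ileum: 6 markers of the upper small intestine summed to 16696 CPM (control male 3) and 7414 CPM (control female 3), while the other 10 libraries held 1152 to 3098 CPM. Of these 6 markers 5 were higher in both pups than in all of the other 10 libraries. Onecut2 was high in control male 3 only (19.4 CPM). In control female 3 it had 0.609 CPM, within the 0.198 to 1.52 CPM of the other 10. Lactase, Lct, stood at 5240.1 and 2318 CPM in these pups, against 157 to 511 CPM in the other 10. The ileal bile acid binding protein Fabp6 stood at 0.716 CPM in control male 3 and at 60.98 CPM in its sister, while the other 10 libraries ran from 29.9 to 608 CPM, so that only the male pup lay outside their range. The markers of the suckling ileal enterocyte summed to 1660 and 2089 CPM in these pups, within the range of the others, but single markers differed. Slc10a2 (0.195 CPM), Lrp2 (4.81 CPM), Dab2 (468 CPM) and Clu (10.1 CPM) in control male 3 also lay below all of the other 10 libraries. Cubn and Amn lay within their range. In control female 3 no marker of this list lay below that range, and Amn and Lrp2 lay above it. Fabp1, an upper intestinal marker, stood at 1404 and 168 CPM in these pups, against 0.151 to 0.638 CPM in the other 10. For this reason the counts over the 43 genes are given with and without control dam 3. The noncoding RNA Yam1 took 1.39% of the reads of stressed male 1, 4.13% of stressed male 3 and 1.00% of control male 1, against 0.171% to 0.5% in the other 9 libraries.

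Levels were first compared per gene length, as the deposited FPKM, which divide the reads of a gene by its length and by the library total. The 43 genes had mean levels from 0.168 FPKM (Mx1) to 222 FPKM (Lgals3bp), with a median of 12.03 FPKM. Of these genes 22 had a mean of at least 10 FPKM and 4 a mean under 1 FPKM, namely Oas3, Mx2, Oas2 and Mx1. Mx1 and Mx2 encode antiviral dynamin-like GTPases that most inbred laboratory mouse strains carry in a defective form. The highest levels after Lgals3bp, a secreted glycoprotein that binds galectins, were those of Ifit1 (107 FPKM), which binds foreign RNA ends, and Irf7 (56.0 FPKM), the transcription factor that amplifies interferon production. Bst2, which tethers budding virus to the cell surface, had 50.5 FPKM and Isg15, the ubiquitin-like protein that is attached to other proteins, 32.7 FPKM. The GTPases were a low group, between 3.19 FPKM (Iigp1) and 6.80 FPKM (Gbp2). All levels below are CPM scaled by TMM (trimmed mean of M-values), which serve to compare 1 gene between libraries.

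The main pattern among the 12 libraries was a high level in the pups of control dam 3. Of the 43 genes 36 had their highest level in 1 of these 2 pups, 25 in control female 3 and 11 in control male 3, against 27.4% of all genes tested. In 22 of the 43, among them Ifit3, Isg15, Irf7, Zbp1, Ddx60 and Herc6, both pups lay above all of the other 10 libraries, against 9.85% of all genes. Of the other 7 genes 6 were highest in stressed male 3 (19.3% of all genes) and 1, Ifit1, in control male 1. The median deviation from the mean of each gene, on the scale log2(CPM + 0.1), was 0.69 in control female 3 and 0.54 in control male 3. It ran from -0.35 in stressed male 1 to 0.28 in stressed male 3 over the other 10 libraries. These counts were chosen for description after control dam 3 had been seen to stand apart.

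**Figure D1:**
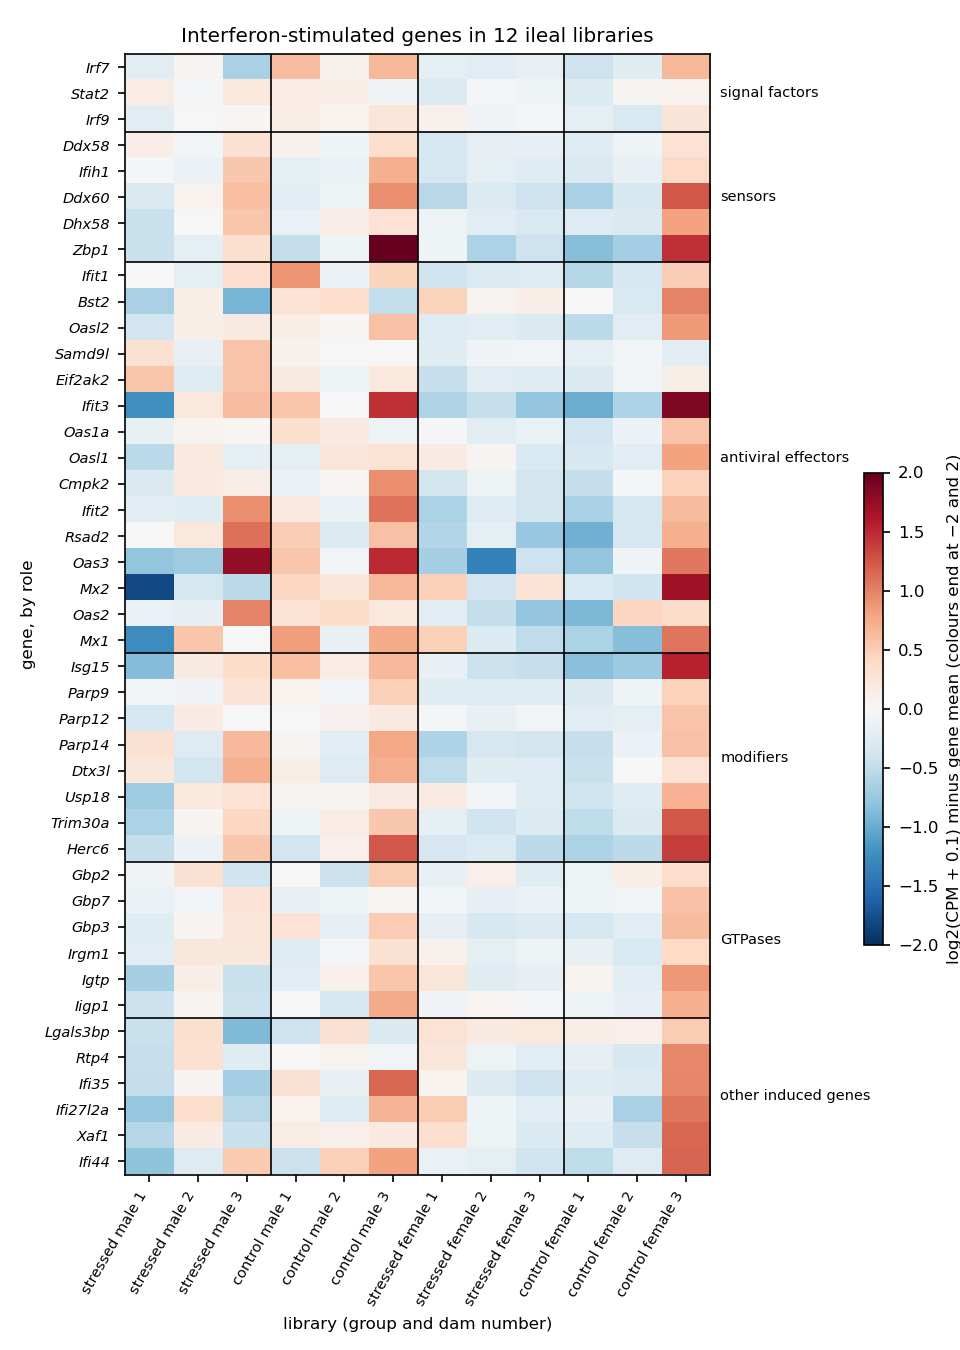
Colours give log2(CPM + 0.1) minus the mean of the gene over the 12 libraries, with 1 row for each of the 43 genes grouped by role and 1 column for each library. The columns of control male 3 and control female 3 are the reddest, and 36 of the 43 rows have their highest value in 1 of these columns.

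The excess in these pups was uneven between the genes. Control female 3 exceeded the mean of control females 1 and 2 in 42 of the 43 genes, by a median ratio of 1.99 and a range of 0.944 (Samd9l) to 6.41 (Ifit3), and by more than 2-fold in 21. Control male 3 exceeded the mean of control males 1 and 2 in 35 genes, by a median ratio of 1.345 and a range of 0.575 (Bst2) to 5.14 (Zbp1), and by more than 2-fold in 7. By role, the median deviation in control female 3 was lowest for the signal factors (0.26) and highest for the other induced genes (1.03), with 0.61 for the GTPases, 0.64 for the modifiers, 0.71 for the effectors and 0.80 for the sensors. In control male 3 it was 0.24 for the signal factors, 0.44 for the other induced genes, 0.50 for the GTPases, 0.59 for the effectors and for the modifiers and 0.71 for the sensors. In bulk tissue a change in the share of a cell type and a change in RNA per cell cannot be told apart. Beside the upper intestinal markers, summed macrophage markers (9 genes) stood at 524 and 497 CPM in the male and the female pup of control dam 3, while the other 10 libraries held 315 to 396 CPM, with 4 of the 9 genes higher in both pups. Markers of conventional dendritic cells (6 genes) stood at 31.6 and 24.7 CPM against 12.7 to 22.4 CPM, with 2 of 6 higher in both. Epithelial markers (7 genes) stood at 7496 and 6588 CPM against 4577 to 6390 CPM, with 2 of 7 higher in both, and endothelial markers (5 genes) at 336 and 289 CPM against 227 to 304 CPM, with 1 of 5 higher in both. B cell markers (6 genes) stood lower, at 6.24 and 16.4 CPM against 19.9 to 58.3 CPM. The other immune lists lay within the range of the other 10 libraries in at least 1 of these pups, and the neutrophil marker Ly6g was at 0 in all 12. The part of these cell types and of intestinal position in the levels was not tested.

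**Figure D2:**
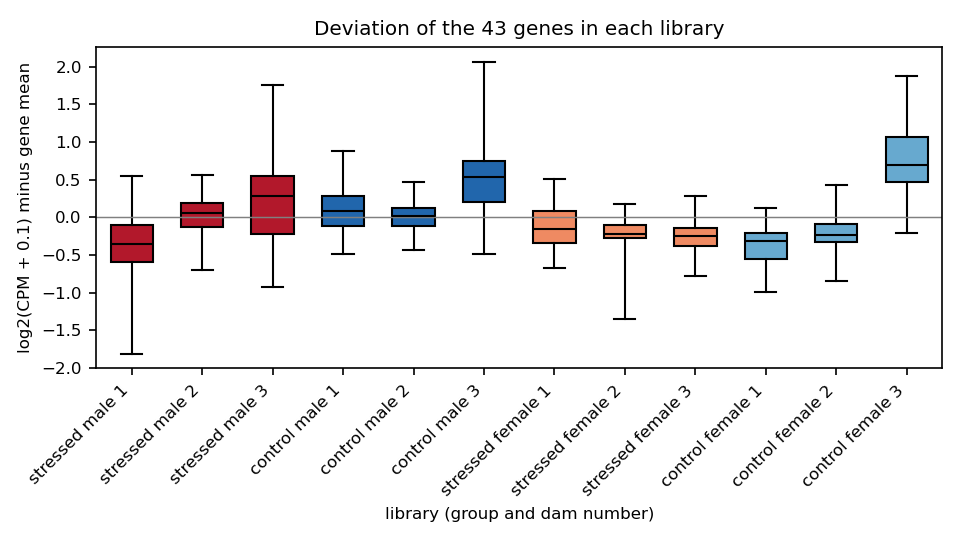
Each box summarises the 43 genes in 1 library as log2(CPM + 0.1) minus the mean of the gene: the line is the median, the box the quartiles and the whiskers the lowest and highest gene. The medians of control male 3 (0.54) and control female 3 (0.69) lie above those of the other 10 libraries (-0.35 to 0.28).

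The signal factors were examined first in stressed against control pups. Irf7 had 104, 125 and 77.0 CPM in stressed males 1, 2 and 3, against 185, 129 and 191 CPM in control males 1, 2 and 3. Each stressed male lay below each control male. In females Irf7 had 107, 104 and 109 CPM in stressed pups and 90.9, 102 and 191 CPM in control pups, where control female 3 alone stood above all stressed females. Irf9, the DNA-binding part of the interferon-activated complex, had 48.7, 56.1 and 57.1 CPM in stressed and 61.8, 58.8 and 66.2 CPM in control males, without overlap. In females it had 59.6, 53.3 and 54.4 CPM in stressed and 49.1, 45.5 and 67.4 CPM in control pups, which overlapped. Stat2, its partner, was the steadiest of the 43 genes, with 124, 108 and 128 CPM in stressed and 123, 122 and 106 CPM in control males, and 91.6, 108 and 104 CPM in stressed females and 91.9, 115 and 117 CPM in control females.

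Among the sensors, Ddx58 (RIG-I) and Ifih1 (MDA5) detect foreign RNA in the cytoplasm. Ifih1 had 49.9, 46.6 and 73.8 CPM in stressed and 44.9, 46.7 and 82.7 CPM in control males, with 40.2, 44.2 and 42.6 CPM in stressed females and 41.5, 45.9 and 66.3 CPM in control females. Number 3 was the highest of its group in stressed males, control males and control females. Ddx58 spanned a narrower range, with 86.5, 75.9 and 98.1 CPM in stressed and 83.6, 74.7 and 101.2 CPM in control males, and 62.2, 70.4 and 70.8 CPM in stressed and 66.5, 74.4 and 96.7 CPM in control females. Ddx60, a helicase that assists RNA sensing, had 40.5, 52.0 and 75.03 CPM in stressed and 42.2, 46.0 and 93.9 CPM in control males, and 33.6, 41.0 and 36.9 CPM in stressed and 31.4, 39.6 and 117 CPM in control females. Zbp1, which binds nucleic acid in the Z form and can start cell death, had 4.13, 4.91 and 7.05 CPM in stressed and 3.99, 5.29 and 23.9 CPM in control males, and 5.30, 3.61 and 4.20 CPM in stressed and 3.08, 3.49 and 15.7 CPM in control females. For Ddx60 and Zbp1 the control groups each held 1 high pup, that of dam 3, and the other control pups lay within or below the stressed range.

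Several antiviral effectors varied widely. Ifit3, which works in complex with Ifit1, had 10.4, 28.2 and 37.5 CPM in stressed and 35.8, 24.2 and 67.8 CPM in control males. In females it had 16.0, 17.7 and 14.2 CPM in stressed and 12.2, 15.9 and 90.0 CPM in control pups, so that control female 3 stood far above the other 5 females. Ifit1 had 271, 242 and 345 CPM in stressed and 504, 253 and 372 CPM in control males, and 207, 227 and 229.7 CPM in stressed and 184, 217 and 386 CPM in control females. The male groups overlapped, and control male 1 was the highest library. Bst2 had 23.1, 39.8 and 19.1 CPM in stressed and 43.6, 45.8 and 25.7 CPM in control males, and 49.4, 37.6 and 39.6 CPM in stressed and 36.3, 29.2 and 72.5 CPM in control females. Control male 3 was here the lowest control male, while its littermate was the highest of the 12 libraries. Oas1a, an oligoadenylate synthetase that activates RNase L, had 27.6, 32.0 and 31.6 CPM in stressed and 38.4, 34.96 and 28.8 CPM in control males, and 29.8, 26.3 and 27.9 CPM in stressed and 23.7, 28.5 and 45.9 CPM in control females. Its relative Oas3 was low, with 1.16, 1.23 and 7.18 CPM in stressed and 3.08, 1.98 and 5.98 CPM in control males, and 1.26, 0.749 and 1.52 CPM in stressed and 1.15, 1.94 and 4.403 CPM in control females, and stressed male 3 was the highest library, above both dam 3 controls. Mx2 rested on 228 reads over all libraries. It had 0.151, 0.589 and 0.508 CPM in stressed and 1.08, 0.939 and 1.30 CPM in control males, without overlap, and 1.13, 0.573 and 0.968 CPM in stressed and 0.617, 0.566 and 2.76 CPM in control females, with overlap.

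The other effectors that the comparisons turned on were higher in some stressed males. Eif2ak2 (PKR), a kinase that stops translation on double-stranded RNA, had 129, 73.95 and 131 CPM in stressed and 99.8, 81.8 and 102 CPM in control males, and 64.2, 75.1 and 74.9 CPM in stressed and 72.2, 84.8 and 95.9 CPM in control females. Samd9l, another inhibitor of translation, had 178, 131 and 216 CPM in stressed and 154, 147 and 145 CPM in control males, and 123, 139 and 139 CPM in stressed and 127, 139.9 and 126 CPM in control females. In both genes stressed males 1 and 3 were the highest of the 12 libraries. Rsad2 (viperin), an enzyme that makes a chain-terminating nucleotide, had 30.9, 36.1 and 66.4 CPM in stressed and 43.6, 25.8 and 46.7 CPM in control males, and 20.7, 27.3 and 18.3 CPM in stressed and 16.0, 24.7 and 50.8 CPM in control females, and was highest in stressed male 3.

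Of the modifiers, Isg15 had 12.2, 25.1 and 28.6 CPM in stressed and 33.7, 24.7 and 34.9 CPM in control males, and 19.9, 16.4 and 16.1 CPM in stressed and 12.3, 13.3 and 64.4 CPM in control females. Without control female 3, control females lay below all stressed females. Parp9, an ADP-ribosyltransferase that acts with Dtx3l, had 85.1, 84.0 and 107 CPM in stressed and 92.7, 85.1 and 123 CPM in control males, and 74.1, 73.3 and 74.7 CPM in stressed and 71.9, 83.4 and 121 CPM in control females. Parp14, a related enzyme, had 159.6, 108 and 201 CPM in stressed and 133, 111 and 219.99 CPM in control males, and 84.2, 102 and 100.04 CPM in stressed and 93.5, 119 and 193 CPM in control females. In both Parp genes the group ranges overlapped in each sex.

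The GTPases of the guanylate-binding and immunity-related families attack the vacuoles of intracellular parasites and bacteria. Gbp2 had 16.1, 20.8 and 12.7 CPM in stressed and 17.0, 12.5 and 23.9 CPM in control males, and 15.2, 18.1 and 14.2 CPM in stressed and 15.7, 18.5 and 21.5 CPM in control females, overlapping in each sex. Gbp7 had 31.2, 32.9 and 41.9 CPM in stressed and 31.1, 32.4 and 35.2 CPM in control males, and 33.2, 30.6 and 31.3 CPM in stressed and 32.4, 32.9 and 51.6 CPM in control females, so that 10 of the 12 libraries lay close together below stressed male 3 and control female 3. Iigp1 had 7.20, 10.1 and 7.18 CPM in stressed and 9.66, 7.76 and 16.4 CPM in control males, and 9.20, 9.96 and 9.54 CPM in stressed and 9.09, 8.64 and 15.9 CPM in control females, with both dam 3 controls on top. Among the other induced genes Lgals3bp had 365, 624 and 271 CPM in stressed and 374, 611 and 407 CPM in control males, and 607, 562 and 573 CPM in stressed and 543, 532 and 706 CPM in control females, and was low in stressed male 3, stressed male 1, control male 1 and control male 3. Rtp4, a chaperone of receptor proteins, had 25.5, 43.1 and 29.7 CPM in stressed and 35.2, 36.6 and 33.8 CPM in control males, and 41.5, 32.6 and 29.9 CPM in stressed and 31.3, 28.0 and 68.5 CPM in control females. Ifi35 had 12.2, 17.7 and 10.5 CPM in stressed and 21.0, 15.3 and 37.7 CPM in control males, and 17.8, 14.0 and 12.7 CPM in stressed and 14.3, 14.1 and 33.5 CPM in control females, again with both dam 3 controls highest.

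**Figure D3:**
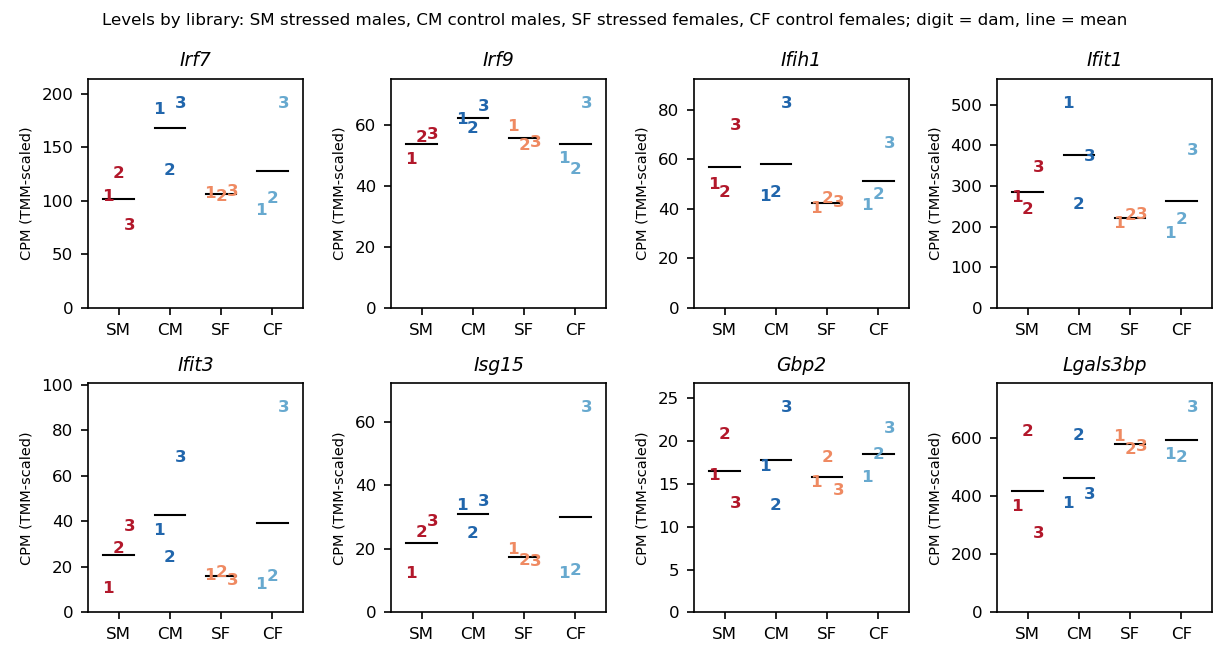
Levels of 8 genes in CPM (linear axis from 0) in stressed males (SM), control males (CM), stressed females (SF) and control females (CF), with each library drawn as its dam number and a line at the group mean. In Ifit3 and Isg15 the control female of dam 3 (90.0 and 64.4 CPM) stands far above the other 5 females, and in Irf7 all stressed males lie below all control males.

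In males, 34 of the 43 genes were lower in stressed than in control pups. Their median log2 fold change was -0.21, against 48.3% of all genes lower and a median of 0.01 over all 16102 genes tested. None passed an adjusted p of 0.05 in edgeR's quasi-likelihood test, and neither did any other gene (0%). DESeq2 and limma-voom also called 0 of the 43. At an unadjusted p under 0.05 there were 2 lower genes, against 2.71% of all genes. Irf7 averaged 102 ± 24.2 CPM in stressed and 168 ± 34.6 CPM in control males (n = 3 each, SD), with a log2 change of -0.72 ± 0.28 (SE; edgeR, adjusted p = 0.752). Ifi35 averaged 13.5 ± 3.74 against 24.6 ± 11.6 CPM, a log2 fold change of -0.87 ± 0.39 (edgeR, adjusted p = 0.752). Mx2 had the lowest log2 fold change, -1.40 ± 0.67, and Samd9l the highest, 0.24 ± 0.16, and Iigp1 stood at -0.46 ± 0.30, all with an edgeR adjusted p over 0.75. Irf7, Irf9 and Mx2 were the 3 genes (6.98%) whose groups did not overlap, all lower in stressed males, against 2.95% of all genes. By role, 6 of 6 other induced genes, 7 of 8 modifiers, 4 of 5 sensors, 11 of 15 effectors, 4 of 6 GTPases and 2 of 3 signal factors were lower. Marker lists of other cells went both ways in males. Of the B cell markers 0 of 6 were below 0 (median log2 fold change 0.26). For the suckling ileal enterocyte it was 2 of 7 (0.41) and for plasmacytoid dendritic cells 1 of 4 (0.08). Macrophage (6 of 9), T and NK cell (4 of 7), smooth muscle (3 of 5) and conventional dendritic cell markers (3 of 6) had medians of -0.11 to -0.05. The 1 neutrophil marker tested was above 0. Of the endothelial markers 5 of 5 were below 0 (median -0.32). Their summed level was 227, 256 and 249 CPM in stressed males against 304, 269 and 336 CPM in control males, without overlap. Of the epithelial markers 7 of 7 were below 0 (median -0.17) and of the upper intestinal ones 6 of 6 (median -2.60). Without both pups of control dam 3 the endothelial, epithelial and upper intestinal counts were 5 of 5 (median -0.25), 3 of 7 and 3 of 6. The part of any of these cells in the levels of the 43 genes was not tested. Without control male 3 the count was 25 of 43 and the median -0.05. With neither pup of control dam 3 in the fit, Irf7 stood at -0.62 ± 0.21 (edgeR, adjusted p = 0.774).

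In females, 41 of the 43 genes were lower in stressed pups, with a median log2 fold change of -0.31, against 51.5% of all genes and a median of 0.00. None of the 43 passed, nor did any other gene (0%), and DESeq2 and limma-voom called 0 as well. At an unadjusted p under 0.05 there were 0 of the 43, against 0.298% of all genes. No gene had groups without overlap, against 2.49% of all genes in the lower direction. The lowest value was that of Ifit3, which averaged 16.0 ± 1.76 CPM in stressed and 39.3 ± 43.9 CPM in control females (n = 3 each, SD), with a log2 change of -1.30 ± 0.70 (SE; edgeR, adjusted p = 1.00). Ddx60 stood at -0.76 ± 0.46, Gbp7 at -0.30 ± 0.18, Parp14 at -0.51 ± 0.32 and Irf9, the highest, at 0.05 ± 0.15. The direction rested on 1 library: without control female 3 only 12 of the 43 genes were lower and the median was 0.11. Without both pups of control dam 3, Ifit3 stood at 0.18 ± 0.42 and Ddx60 at 0.06 ± 0.23. With all dams, 9 of 9 macrophage (median -0.18), 6 of 6 upper intestinal (-1.26), 5 of 7 epithelial and 3 of 5 endothelial markers were below 0. So were 3 of 7 suckling ileal enterocyte, 3 of 6 conventional dendritic cell and 2 of 5 smooth muscle markers. It was 1 of 4 for plasmacytoid dendritic cells, 1 of 7 for T and NK cells and 0 of 6 for B cells. The part of these cells in the levels was not tested.

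With the counts of littermates summed, so that the dam is the replicate, 42 of the 43 genes were lower in stressed than in control dams' litters. The median log2 fold change was -0.29, against 48.7% of all genes lower and a median of 0.00 over the 16749 genes tested. None passed in edgeR (0% of all genes), DESeq2 or limma-voom, and 1 of the 43 had an unadjusted p under 0.05 (0.806% of all genes, lower). This was Irf7, with 104, 115 and 95.4 CPM in the litters of stressed dams 1, 2 and 3 and 132, 117 and 191 CPM in those of control dams 1, 2 and 3. Its means were 105 ± 9.96 and 147 ± 39.2 CPM (n = 3 each, SD), with a log2 change of -0.49 ± 0.19 (SE; edgeR, adjusted p = 1.00). Igtp, Irf7 and Oas1a were the 3 genes (6.98%) without overlap between the dams, all lower in stressed ones, against 3.18% of all genes. Oas1a had 28.4, 29.3 and 29.4 CPM in the litters of stressed dams and 30.2, 32.1 and 38.6 CPM in those of control dams. Ifit3 was the lowest of the 43, at -1.04 ± 0.54, with 13.2, 22.9 and 23.9 CPM in the litters of stressed dams and 22.6, 20.3 and 80.6 CPM in those of control dams. Samd9l was the only 1 above 0, at 0.12 ± 0.11. Of the marker lists 8 of 9 macrophage (median -0.17), 6 of 6 upper intestinal (-2.20), 7 of 7 epithelial (-0.11) and 5 of 5 endothelial markers (-0.20) were below 0. So were 3 of 7 suckling ileal enterocyte, 4 of 6 conventional dendritic cell and 3 of 5 smooth muscle markers. It was 4 of 9 for T and NK cells, 0 of 4 for plasmacytoid dendritic cells and 0 of 6 for B cells. Their part in the levels was not tested. Without control dam 3, 18 of the 43 were lower, the median was 0.01 and Irf7 stood at -0.24 ± 0.11 (edgeR, adjusted p = 1.00).

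**Figure D4:**
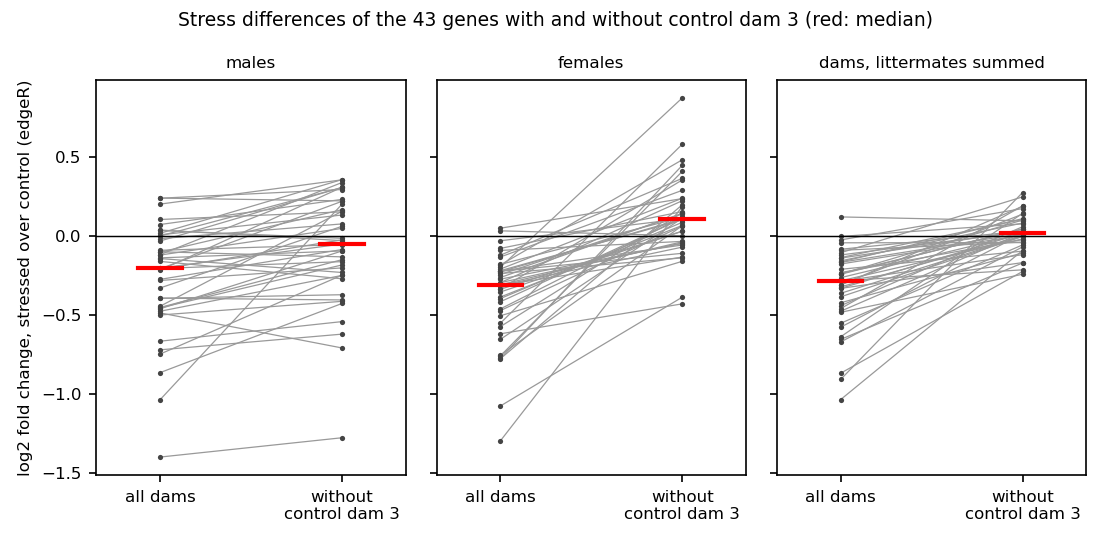
Each line joins the log2 fold change of 1 gene, stressed over control, with all dams and without control dam 3, in males, in females and with littermates summed, and red bars mark medians. The medians stand at -0.21, -0.31 and -0.29 with all dams and at -0.05, 0.11 and 0.01 without control dam 3.

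The change with stress was compared between the sexes as the male minus the female log2 fold change. The difference was above 0 in 28 of the 43 genes (50% of all genes) and below 0 in 15, with a median of 0.13. None passed in edgeR (0% of all genes), DESeq2 or limma-voom, and 0 of the 43 had an unadjusted p under 0.05, against 2.15% of all genes. The smallest p belonged to Eif2ak2, with a difference of 0.48 ± 0.29 (SE; edgeR, adjusted p = 0.999), made of 0.24 in males and -0.24 in females. Gbp7 differed by 0.40 ± 0.26, Irf9 by -0.26 ± 0.21 and Irf7 by -0.46 ± 0.39. The lowest difference was that of Mx2, -0.85 ± 0.90, and the highest that of Oas3, 0.86 ± 1.03. All 8 modifiers had a difference above 0, and without both pups of control dam 3 only Parp9, Parp14 and Dtx3l of the 8 did. Without control male 3 the count above 0 was 34, without control female 3 it was 12, and without both it was 18. Without both, 4 of the 43 had an unadjusted p under 0.05, all with a difference below 0, against 1.44% of all genes. These were Mx2 (-1.86 ± 0.70), Bst2 (-1.07 ± 0.38), Irf7 (-0.76 ± 0.30) and Irf9 (-0.40 ± 0.17), all with an edgeR adjusted p of 0.851. Without control female 3 alone there were 5, again below 0, against 1.02% of all genes.

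Males and females were then compared over stressed and control pups together. Of the 43 genes 32 were higher in males. Their median log2 fold change was 0.18, against 49.4% of all genes and a median of 0.00. None of the 43 was among the 8 genes called in edgeR (0.0497%), and DESeq2 and limma-voom called none of them. At an unadjusted p under 0.05 there were 3 of the 43, all higher in males, against 8.28% of all genes. Eif2ak2 had 73.95, 100.8 and 131 CPM in males and 64.2, 74.99 and 95.9 CPM in females (lowest, median and highest of 6), a log2 fold change of 0.40 ± 0.15 (SE; edgeR, adjusted p = 0.411). For Samd9l the same 3 values were 131, 150.1 and 216 CPM in males and 123, 133 and 139.9 CPM in females (0.29 ± 0.11 in log2, edgeR, adjusted p = 0.411). Rsad2 had 25.8, 39.9 and 66.4 CPM in males and 16.0, 22.7 and 50.8 CPM in females (0.68 ± 0.29 in log2, edgeR, adjusted p = 0.411). The ranges of males and females overlapped in all 43 genes; of all genes 0.112% were higher and 0.143% lower in males without overlap. Ifit1 differed by 0.45 ± 0.21, Oas3, the highest, by 0.98 ± 0.52, and Mx2, the lowest, by -0.67 ± 0.45. Without both pups of control dam 3, 7 of the 43 genes were below 0. Without stressed male 2, edgeR called 1384 of all 16389 genes tested and 3 of the 43, Eif2ak2 and Samd9l among them.

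Gene length moved, over the 43 genes, with the sex comparison and with the stress comparisons other than that in females. The 32 genes higher in males had a median length of 3794.5 bases and the 11 lower ones 2330 bases. Over the 43 genes Pearson's r of log2 length with the sex difference was 0.50, and over all 16102 genes it was 0.29; genes are not independent replicates, and all share the same 12 libraries. Within single libraries the same r over all genes was highest in stressed males 1 and 3 (0.41 and 0.46) and lowest in stressed female 1 (-0.42). By role, 8 of 8 modifiers, 5 of 5 sensors, 3 of 3 signal factors and 12 of 15 effectors were higher in males, against 2 of 6 GTPases and 2 of 6 other induced genes. Over the 43 genes r of log2 length with the log2 fold change was 0.42 in stressed against control males, -0.060 in stressed against control females, 0.46 for the difference of the stress changes and 0.25 with littermates summed. Over all genes tested it was 0.25, -0.11, 0.32 and 0.12 in the same order. The part of gene length in these values was not tested.

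**Figure D5:**
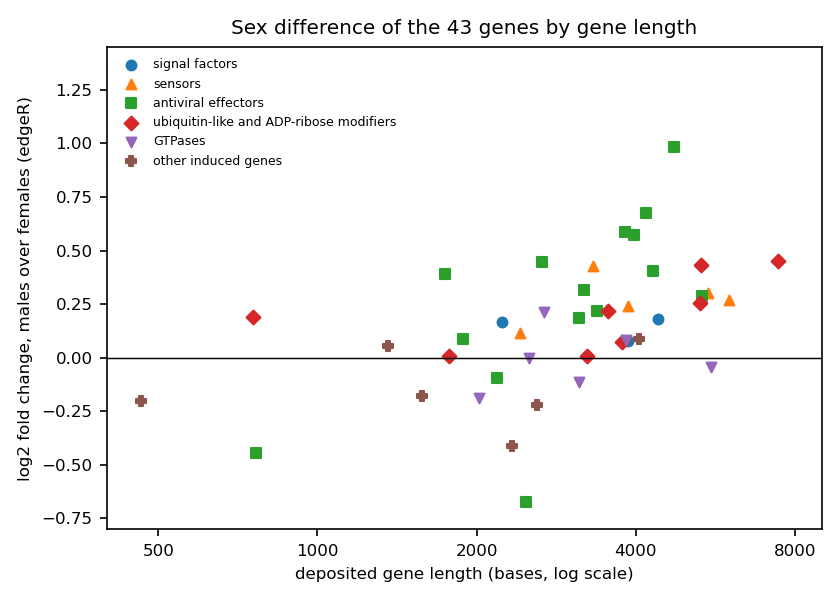
Log2 fold change of males over females against deposited gene length in bases (log axis), 1 point for each of the 43 genes with the shape and colour of its role. Of the 43 genes 32 lie above 0, with a median length of 3794.5 bases against 2330 bases for those below.

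Most of the 43 genes varied together over the 12 libraries. Pearson's r of the log2 CPM of a gene with the mean of the other 42 had a median of 0.78 over 12 libraries and was at least 0.5 in 37 of the 43 genes. Without the pups of control dam 3 the median was 0.64 over 10 libraries and 25 genes reached 0.5. The share of all genes that reach 0.5 with this mean is not given here, so the counts cannot be called particular to the 43. The genes share libraries and scaling, and littermates are not independent, so these values describe the 12 libraries. Oasl2 (0.99 over 12 libraries and 0.97 over 10) and Ifit3 (0.98 and 0.96) were closest to the rest in both sets. Lgals3bp (-0.05 and -0.38), Samd9l (-0.01 and 0.37) and Bst2 (0.23 and -0.04) did not follow it over 12 libraries.

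Outside the 43, the 8 genes of 14479 with a mean of at least 1 CPM whose profile over 12 libraries was most like their mean had r between 0.91 and 0.95. They were Gm5431 (0.95), Trim30d (0.95), I830012O16Rik (0.95), Metrnl (0.94), Gm12250 (0.94), Nmi (0.94), Uba7 (0.94) and Cd47 (0.91). Uba7 encodes the enzyme that activates ISG15 for conjugation, and I830012O16Rik is the deposited name of Ifit3b, a near copy of Ifit3. Without control dam 3 their r lay between 0.70 (Cd47) and 0.93 (I830012O16Rik). Gm5431 had 27.9 and 31.8 CPM in the male and the female pup of control dam 3, while the other 10 libraries held 3.82 to 10.99 CPM.

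The ligands themselves were at the edge of detection. Of 21 listed interferon genes 3 had any read in the 12 libraries, Ifnk with 5, Ifnz with 8 and Ifng with 2, and none was tested. The 6 receptor subunits were all present. Of the type I receptor, Ifnar1 lay between 94.1 and 211 CPM and Ifnar2 between 22.1 and 32.4 CPM. Of the type II receptor, Ifngr1 lay between 67.8 and 163 CPM and Ifngr2 between 167 and 372 CPM. Of the type III receptor, Ifnlr1 lay between 33.2 and 40.9 CPM and Il10rb, which it shares with interleukin-10, between 54.4 and 92.5 CPM. In males Il10rb had a log2 fold change of -0.43 ± 0.17 and Ifnar1 one of 0.46 ± 0.22 (SE; edgeR, adjusted p = 0.752 for both), with 5 of 6 receptor genes lower in stressed males and 2 of 6 in stressed females. With littermates summed the 2 stood at -0.15 ± 0.10 and 0.22 ± 0.14, and 5 of 6 receptor genes were lower. Of all genes 48.3% were lower in stressed males, 51.5% in stressed females and 48.7% with littermates summed. The receptor counts include control dam 3 and are not given without it.

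Of 13 downstream kinases, STAT and IRF factors 10 were lower in stressed males, 9 in stressed females and 12 with littermates summed, and 0 passed. Of all genes 48.3%, 51.5% and 48.7% were lower in these comparisons. The counts of this paragraph include control dam 3 and are not given without it. In Jak2, Irf1 and Irf8, but in no other of the 13, both of its pups lay above all of the other 10 libraries. Irf8 had 130 and 107 CPM in its male and female pup, against 40.2 to 73.8 CPM. Irf2 stood at -0.30 ± 0.20 in males and 0.21 ± 0.20 in females, Jak1 at -0.16 ± 0.12 in females and Tyk2 at -0.11 ± 0.09 with littermates summed. Of 13 genes of nucleic acid sensing 7, 9 and 9 were lower in the same 3 comparisons, and 0 passed. Ticam1, an adaptor of Toll-like receptors, stood at -0.28 ± 0.14 in males and -0.14 ± 0.11 with littermates summed, Tlr9 at 0.55 ± 0.32 and 0.30 ± 0.23, and the kinase Tbk1 at -0.17 ± 0.23 and the adaptor Mavs at -0.09 ± 0.17 in females. Of 5 genes that restrain the signal 4, 2 and 3 were lower, and 0 passed. Socs1, which blocks the receptor kinases, stood at -0.27 ± 0.39 in males and -0.13 ± 0.24 with littermates summed, Pias1 at 0.12 ± 0.11 in males, Socs3 at 0.18 ± 0.26 and Ptpn6 at 0.08 ± 0.13 in females, and Ptpn2 at -0.08 ± 0.11 with littermates summed.

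A further list of 58 interferon-induced genes outside the 43 held 57 in the table, of which 55 were tested. It showed the same high pups: 43 of the 57 had their highest level in a pup of control dam 3, 25 in the female and 18 in the male, against 27.4% of all genes tested. Of the 55 tested genes 44 were lower in stressed males (median log2 fold change -0.26), 42 in stressed females (-0.20) and 47 with littermates summed (-0.23), against 48.3%, 51.5% and 48.7% of all genes, and 0 passed in any comparison. Without control dam 3 the counts were 34 in males (-0.056), 9 in females (0.14) and 24 with littermates summed (0.029), so that the direction turned in females and over dams. Shisa5 stood at -0.54 ± 0.22 in males and at -0.32 ± 0.15 with littermates summed, and the immunity-related GTPase gene Ifi47 at -0.55 ± 0.24 and -0.40 ± 0.16 (SE; edgeR, adjusted p = 0.752 in males and 1.00 with littermates summed). In females Slfn2 stood at -1.03 ± 0.63 and Apol9a at -0.87 ± 0.61. Slfn2 had 38.4 and 38.97 CPM in the male and the female pup of control dam 3, while the other 10 libraries held 6.24 to 12.5 CPM, and Apol9a had 50.2 and 52.6 CPM against 8.56 to 18.8 CPM. In the difference of the stress changes, Il10rb stood at -0.51 ± 0.24, Irf2 at -0.51 ± 0.28, Sp110 at -0.49 ± 0.30, Ifnar1 at 0.44 ± 0.31, Traf3 at 0.43 ± 0.31, Ticam1 at -0.29 ± 0.20, Pml at 0.24 ± 0.18, Nfkb1 at -0.21 ± 0.20, Ptpn6 at -0.15 ± 0.18 and Pias1 at 0.14 ± 0.15. In males against females, Slfn5 stood at 0.62 ± 0.22, Ifngr2 at 0.58 ± 0.17, Ifnar1 at 0.35 ± 0.15, Traf3 at 0.31 ± 0.15 and Ticam1 at 0.25 ± 0.10, and Ifitm2 at -0.56 ± 0.19, Irf2 at -0.24 ± 0.14 and Ptpn2 at -0.23 ± 0.14, all with an edgeR adjusted p over 0.4.

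In the authors' deposited table of comparisons no gene passed an adjusted p of 0.05 either. The log2 fold changes in the authors' deposited table were below 0 for 36 of the 43 genes in males, 41 in females and 41 over all pups, against 52.3%, 53% and 48.4% of all genes with a value there. These comparisons hold the pups of control dam 3. Some reads of the 43 cannot be assigned with certainty, since the sources used here do not say whether counting used the strand: 11 of the genes overlap another gene, 7 of them on the opposite strand, Irf7 by 45 bases with Phrf1 and Parp9 by 682 bases with Dtx3l. Ifit3, Trim30a, Oas1a and Ifi27l2a have near-identical copies with which reads can be shared, and Gbp3 and Gbp7 lie within the span of Gbp5.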

How the data were processed

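Total RNA of 12 ilea was sequenced. Raw counts per gene stand in 1 deposited table of all libraries, and the deposited FPKM values equal count over gene length and library total (largest relative difference 5e-12). The authors' deposited table of comparisons gives log2 fold changes and, per the file headers, p-values before and after adjustment. Per the submitters' processing notes the tools were TopHat, STAR 2.5, HTSeq 0.6.1, edgeR 3.16.5 and DESeq2, with builds GRCm38 and mm10. Neither the annotation release nor a strand setting is given in the sources used here. RNA was kept in RNAlater and extracted with a column kit, per the labels' protocols.

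Counts were tested with edgeR 4.0.16 (R 4.3.3) by the quasi-likelihood F test after TMM scaling and filterByExpr, with Benjamini-Hochberg adjustment over all genes tested and a threshold of 0.05. A fit of the 4 groups (12 libraries, 16102 genes, 8 residual degrees of freedom) served the comparisons within and between the sexes. Stressed and control dams were compared on littermates' summed counts (3 against 3, 16749 genes, 4 residual degrees of freedom). SE is the absolute log2 fold change over the square root of F, and log CPM used a prior count of 2. Other settings tried were size factors by median ratios, DESeq2 1.42.0 (Wald), limma-voom (limma 3.58.1), an unfiltered table, genes averaging 1 CPM or more, limma on FPKM with a pseudocount of 1 or 0.1, each sex by itself, replicate blocks, sex as a covariate over 12 pups, a random effect of dam, and fits without single libraries, control dam 3 or the Yam1-rich males. Read numbers limit the precision of low genes: the 43 genes held 138 to 128445 reads each over 12 libraries.

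The genes named were, per role, the 2 of highest FPKM, per comparison the 4 of smallest p and the lowest and highest log2 fold change, and the 4 of widest range that averaged 1 CPM or more, 25 in all. From the pathway lists all receptors, all ligands with reads and, per comparison, the 2 genes of smallest p in each list were named, except some that are not reported here. Gbp3 was added for its sequence, and Oasl2, Igtp and Herc6 after their values were seen. The 43 genes, the lists and most alternatives were chosen with earlier results of these data known. The values of the pathway and marker lists without control dam 3 were added after the data were seen. Of 231 listed symbols 230 were in the table, 7 matched by identifier through the reference. Replicate numbers are dam numbers by the labels: they pair littermates, but not a stressed dam with a control dam. Littermates' deviations correlated between -0.36 and 0.54. The p-values measure the spread between pups or dams. On simulated data with 100 genes changed 2-fold and 100 changed 4-fold among 16102, edgeR recovered 35 and 82 (males), 35 and 81 (females), 6 and 53 (difference), 67 and 91 (sexes) and 62 and 91 (dams). Of the 15902 unchanged genes it called 11, 6, 4, 10 and 14 in the same order. The simulated libraries were drawn independently around 1 mean per gene, without a litter effect or a dam that stands apart. The numbers recovered therefore need not hold for the libraries described here. Protein sequences were not used here.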

Additional observations from a re-analysis of the deposited data

Results flagged for a closer look

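Over the 6 control pups the gap between the highest pup and the next, divided by the range, passed the critical value of 0.625 in 3 of the genes described, each with control female 3 on top. The ratio was 0.8 for Gbp7, 0.786 for Rtp4 and 0.666 for Mx2. Over the 6 stressed pups it passed in 5 genes, each with stressed male 3 on top: 0.88 for Oas3, 0.767 for Gbp7, 0.711 for Ifih1, 0.648 for Parp9 and 0.629 for Rsad2. Among all 43 genes 4 passed through a high value of control female 3, 1 through a low value of control female 1 and 9 through a high value of stressed male 3. Of all genes tested, 9.47% passed in the control pups and 4.55% in the stressed pups. Chance flags about 1 in 20 groups, and littermates and sexes are mixed in these groups of 6.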

How the results depend on the processing

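No alternative other than leaving out stressed male 2 called any of the 43 genes, and the limit throughout is 3 pups or dams a group with 1 control dam that stands apart. Of the summary values under alternatives 355 stayed close to the reported ones and 20 moved. Counts of lower genes and medians turned on control dam 3: without both of its pups 13 genes were lower in females, with a median of 0.11, 25 were below 0 in the difference of the stress changes and 7 in males against females. The number of genes highest in a pup of control dam 3 was 36 with median-ratio size factors and 31 with library totals or FPKM, both scalings tried after the data were seen. The share of all genes highest there with these scalings is not given here. TMM factors were lowest in control male 3 (0.876) and control female 3 (0.953), against 0.959 to 1.06 in the other libraries. A lower factor raises the CPM of every gene in a library. The causes were not tested.

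Leaving out each library or dam in turn gave 25 to 39 genes lower in males (medians -0.32 to -0.05), 12 to 43 in females (-0.51 to 0.11), 18 to 42 over dams (-0.40 to 0.014), 9 to 31 in the difference (-0.30 to 0.33) and 3 to 18 in males against females (0.05 to 0.34). Of all genes it called 0 to 1 in males and 8 to 1384 in males against females, with 0 to 3 of the 43. The 1384 (of 16389 genes tested) and the 3 (of 43) came without stressed male 2. Eif2ak2 (0.53) and Samd9l (0.38) passed there, as did Ifngr2 (0.67), Ifnar1 (0.48) and Ifitm2 (-0.73). DESeq2 called 18 genes in males against females.

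Without the 3 males richest in Yam1, which leaves 1 stressed male assumed to vary like the other groups, 5 genes were called in males against females and 5 of the 43 were lower there. Directions turned for Samd9l (-0.15), Ifnar1 (-0.046), Socs1 (0.36) and Tlr9 (-0.16) in males, for Oas3 (-0.60), Eif2ak2 (-0.071) and Ifnar1 (-0.065) in the difference, and for Traf3 (-0.040), Ifnar1 (-0.0074) and Irf2 (0.013) in males against females. In females, values without both pups of control dam 3 turned for Ifit3 (0.18), Ddx60 (0.063), Tbk1 (0.12), Ifngr2 (0.021), Apol9a (0.28) and Slfn2 (0.083). Single libraries left out turned further directions. In females the values ran from -1.76 to 0.19 for Ifit3, -1.11 to 0.067 for Ddx60, -0.37 to 0.13 for Tbk1, -0.20 to 0.025 for Ifngr2, -1.32 to 0.28 for Apol9a, -1.45 to 0.087 for Slfn2, -0.081 to 0.24 for Irf9, -0.0035 to 0.14 for Ptpn6 and -0.021 to 0.14 for Il10rb. Socs1 ran from -0.54 to 0.052 in males and from -0.25 to 0.13 over dams, and Oas3 from -0.53 to 1.39 in the difference.

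With the litter as a replicate block, for which littermates pair by the labels, 6 genes were called in males against females, 0 of the 43 among them, and the median difference of the stress changes was 0.02 with 20 genes below 0. With the dam number as a block, which pairs nothing by the labels, 34, 41 and 42 genes were lower in males, in females and over dams (medians -0.21, -0.25 and -0.25) and 0 genes were called. The block changed no other call.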
